A study of Mus musculus with 8 samples.

Results

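The proteasome subunits and assembly factors were examined in RNA-seq libraries labelled as mouse liver, in 4 libraries of the Control group and 4 of the Control+tranilast group. Members were chosen by gene symbol: every gene whose symbol starts with Psma, Psmb, Psmc, Psmd, Psme, Psmf or Psmg, with Pomp added. The rule found 52 of the 22063 genes in the deposited table. The gene family itself was selected with the differences between tranilast and control in these same libraries already known, so its members' fold changes and calls are a description and nothing is read from them. All 8 samples carry the genotype label WT, and the study's methods describe male C57BL/6J mice, young adults when obtained, of which HFHC-fed animals received tranilast, an anti-allergic drug, or its vehicle by mouth. By the series design both groups were on the high-fat, high-cholesterol (HFHC) diet, whereas the labels name no diet, age, dose or batch. The libraries were poly-A enriched and paired-end by the methods, which name a HiSeq X-ten, while the labels name a NovaSeq. The sources do not say that each library came from a separate animal, so the p-values below measure the spread between these samples.

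The proteasome degrades proteins tagged with ubiquitin. Its 20S core is a barrel of stacked rings: the outer alpha rings gate the entry, and the inner beta rings hold the catalytic subunits Psmb5, Psmb6 and Psmb7. The 19S cap sits on the barrel, recognizes ubiquitin, removes it and unfolds the substrate with a ring of ATPases. Under interferon, cells replace the 3 constitutive catalytic subunits with Psmb8, Psmb9 and Psmb10 and make the PA28 activator from Psme1 and Psme2, which together alter the peptides available for MHC class I. Dedicated chaperones build the core and the base of the cap, and the transcription factor NRF1 raises proteasome genes when proteasome activity is short.

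The libraries held between 12053036 and 15618787 counts: 14585153, 15056589, 15618787 and 14895420 in control replicates 1 to 4, and 13590513, 13241879, 12053036 and 14679386 in tranilast replicates 1 to 4. A count of 0 therefore allows up to 3 counts, or 0.192 to 0.249 CPM (counts as a rate over the library's total). The liver label was compared with marker genes. The 9 hepatocyte markers together took at most 0.000191% of any library's counts; Ttr, with the most counts, reached at most 17, and Cps1, Serpina1a and Tat were at 0 in all 8 libraries. The 10 macrophage markers took 0.906% to 0.960% of the counts in control and 0.884% to 0.943% with tranilast, led by Lyz2, although the macrophage genes Mertk, C1qa and C1qb were at or near 0. Of the 5 Kupffer cell markers, Clec4f, Timd4 and Vsig4 were at 0 in all libraries. Hepatocyte marker RNA was thus nearly absent from libraries labelled as liver, and every value below belongs to the RNA that these libraries hold, whatever its source. In such bulk samples, fewer cells of a type and less RNA per cell cannot be told apart.

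CPM below are scaled by TMM, which sets a factor for each library from the middle of its gene ratios, and a gene was "called" when its Benjamini-Hochberg adjusted p from the quasi-likelihood test of edgeR was under 0.05 over the 10770 genes tested. The 8 proliferation markers differed between the groups. Together they took 0.396%, 0.382%, 0.396% and 0.402% of the counts in control replicates 1 to 4 and 0.245%, 0.251%, 0.25% and 0.249% in tranilast replicates 1 to 4. Mki67 took the most counts of them and none was at 0. Of the 8, 7 were called lower, where 28.8% of all genes tested were. The median log2 fold change of the 8 was -0.94, from -2.58 for Plk1 to 0.024 for Pcna, which was not called with TMM. With library size alone 6 were lower and 1 higher, beside 1893 and 4613 of the 10770 genes. Of the 7 macrophage markers tested, 2 were called higher (Adgre1 and Cd68) and 5 lower, with a median of -0.13 from -1.42 for Fcgr1 (-1.31 with library size alone), below any proteasome member, to 0.21 for Adgre1; with library size alone 2 were higher and 2 lower, with a median of -0.013. The part of either list in the proteasome results was not tested.

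Most of the proteasome genes were lower with tranilast by a small amount. Of the 52 members, 51 passed the filter on low counts. The member left out was Psmb11, the thymus-specific beta subunit, with 4 counts in control replicate 1 and 0 in the other 7 libraries. Among the 51, 37 were called (72.5%), where 57.0% of all tested genes were. The 35 members called lower were 68.6% of those tested, against 28.8% of all genes, and the 2 called higher, Psmf1 and Psmd5, were 3.92%, against 28.2%. In 33 members (64.7%) the groups did not overlap, and in 49.8% of all genes they did not. The differences themselves were small: the median log2 fold change was -0.16, the median size regardless of sign was 0.166 against 0.209 for all genes, and 36 of the 51 members differed by less than 0.25. By the fold threshold of the study, a log2 fold change of 1.5 or more in either direction, taken with an adjusted p under 0.05, 1.11% of all genes passed in edgeR and 0 members did, with 0 also at an unadjusted p under 0.05 and 0 in DESeq2 and in limma-voom.

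The direction of single members depended on how the libraries were scaled. With library size alone in place of TMM, the median log2 fold change of all genes moved from 0.0085 to 0.12, a shift of more than 0.1, and the members called went from 2 higher and 35 lower to 6 higher and 16 lower, where 4613 of the 10770 genes were higher and 1893 lower. Upper-quartile factors gave 3 members higher and 25 lower, beside 3882 and 2321 of all genes. The deposited FPKM values, which are scaled for transcript length and depth, gave 5 and 18 members, beside 3958 and 1660 of all genes with log2 FPKM plus 1. A fold change below 0 with TMM, RLE, upper-quartile factors and library size alone was seen in 34 members, and a call of lower under all 4 in 16. Library size alone gave the same 34 and 16, so the other scalings removed no member. The share of all genes called lower under all 4 was not counted, here or beside the later counts under all 4. Those 16 were Psma1, Psma2, Psma3, Psma6, Psmb5 and Psmb7 of the core, Psmc1, Psmc3, Psmc4, Psmc6, Psmd6 and Psmd12 of the cap, the immunoproteasome genes Psmb8, Psmb10 and Psme2, and the activator Psme3. Psmb1 of the core and Psmd11 of the cap were called lower with TMM but had fold changes above 0 with library size alone. A change of the library factors shifts all genes nearly alike, so places relative to the median of all genes do not test the scaling. With TMM, 47 of the 51 members lay below that median, and 45 and 46 did with log2 FPKM plus 1 and plus 0.1. Relative to it, the medians with TMM were -0.20 for the core, -0.18 for the cap, -0.36 for the immunoproteasome and -0.056 for the assembly factors. With log2 FPKM plus 1 they were -0.18, -0.16, -0.33 and -0.037.

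**Figure D1:**
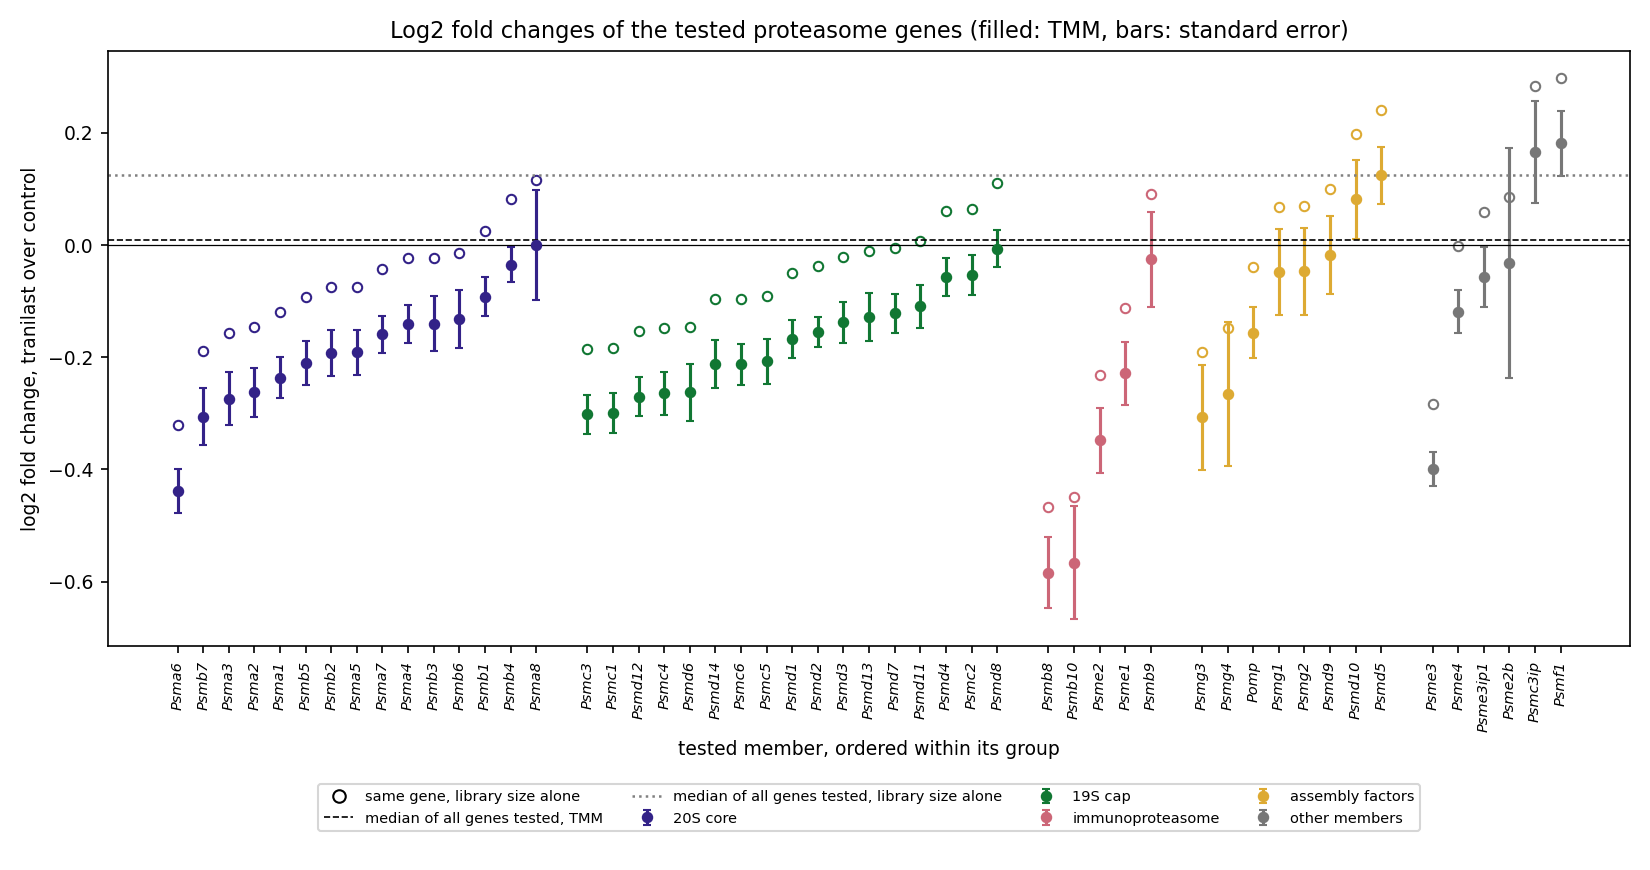
Log2 fold change of tranilast over control for the 51 tested members, grouped by role, with TMM (filled points, bars show the standard error) and with library size alone (open points). The dashed and dotted lines mark the median of all genes tested under each scaling; 46 members lie below 0 with TMM and 34 with library size alone.

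**Figure D2:**
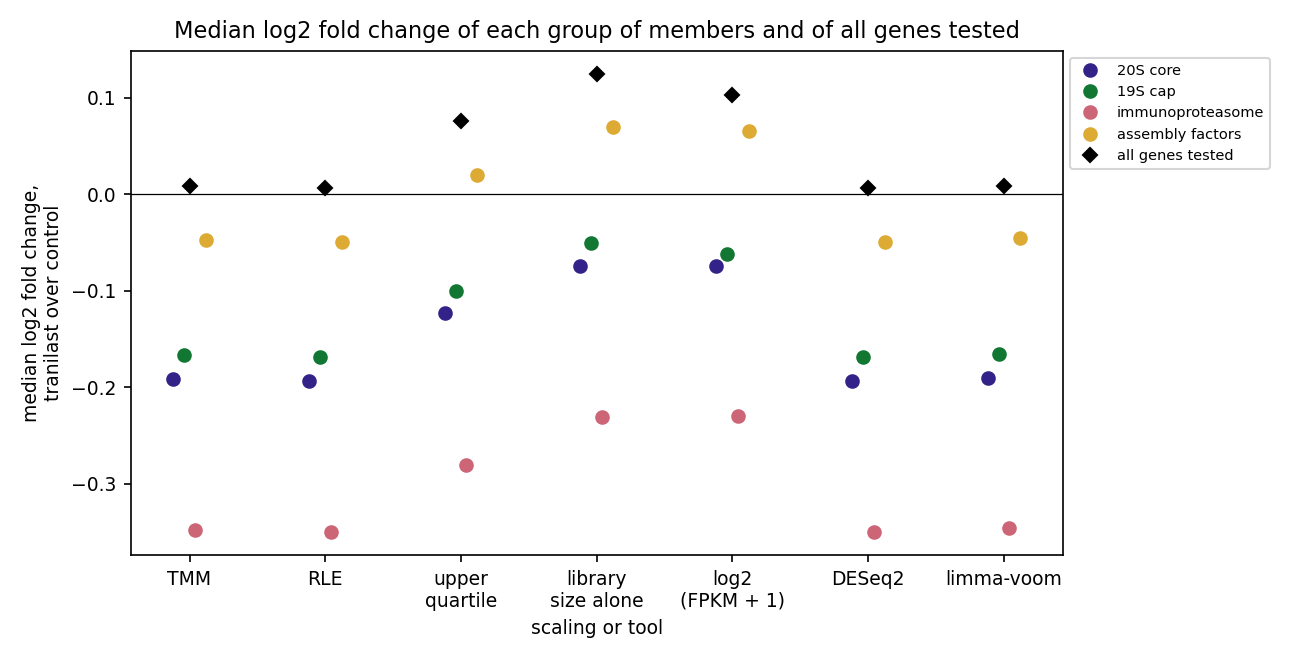
Median log2 fold change (vertical axis) of the core, the cap, the immunoproteasome, the assembly factors and all genes tested, under each scaling or tool (horizontal axis). With upper-quartile factors, library size alone and FPKM, the medians of the 4 groups and of all genes lie above those with TMM. The core, cap and immunoproteasome stay below 0, and the assembly factors move from -0.047 with TMM to 0.069 with library size alone.

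As a sum over the 52 members, the proteasome genes were lower in every tranilast library than in any control library. The summed level was 5809, 6080.0, 5931 and 5917 CPM in control replicates 1 to 4 and 5242, 5223, 5222 and 5241 CPM in tranilast replicates 1 to 4. The control libraries varied more around their mean of 5934 ± 111 CPM (SD, n = 4) than the tranilast libraries around theirs of 5232 ± 10.8 CPM. A share of the raw counts is scaled by library size alone. On it the sum was 0.560, 0.581, 0.568 and 0.569% in control replicates 1 to 4 and 0.543, 0.545, 0.542 and 0.547% in tranilast replicates 1 to 4. The groups did not overlap on either scale, and the gap was narrower on the raw share.

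Promoter windows were available from RefSeq (build GRCm38.p6) for 44 of the 52 members, in 48 windows of 300 bases, from 250 before to 50 after the annotated start. Each window was searched on both strands for 4 short motifs, and the share of all 32851 windows of the table is given beside each. TGACNNNGC, the core of the antioxidant response element that NRF1 and NRF2 bind, was in 6 of the 48 windows (12.5%) and in 12.4% of all windows. The CCAAT box was in 16 (33.3%) and in 37.4% of all. The core of the interferon-stimulated response element, written GAAA, any pair of bases, GAAA, was in 5 (10.4%) and in 3.44% of all. Of these 5 windows 1 was of the immunoproteasome (Psme1), and the others were of Psmb3, Psmd4, Psmd9 and Psmg4. TTCNNNGAA, the core of the gamma-activated site of interferon gamma response genes, was in 3 (6.25%) and in 8.30% of all. Here too 1 was of the immunoproteasome (Psmb8), and the others were of Psmd2 and Psmg1. The GC content of the members' windows had a median of 58.2%, against 52.7% for all windows. For the catalytic subunits and for Psme1 and Psme2, the windows that hold a motif are printed, because constitutive and interferon-inducible catalytic subunits take the same places in the complex. The window of Psmb10 and both windows of Psme2 hold none of the 4 motifs and are not printed, and Psmb7 has no window in the table. Capitals mark a motif: TGACNNNGC in Psmb5 and Psmb6, TTCNNNGAA in Psmb8, CCAAT in Psmb9 and the interferon-stimulated core in Psme1, each on either strand. They lie at chr14:54617946-54618245 (minus strand) for Psmb5, chr11:70525107-70525406 (plus) for Psmb6, chr17:34197945-34198244 (plus) for Psmb8, chr17:34187281-34187580 (minus) for Psmb9 and chr14:55578244-55578543 (plus) for Psme1, and are written 5′ to 3′ along the gene's strand. From the start, the motif's first base is at -47 in Psmb5, -9 in Psmb6, -97 in Psmb8, -8 in Psmb9 and 9 in Psme1. A match is a description of letters, not a binding site, and binding was not measured in these libraries.
Psmb5: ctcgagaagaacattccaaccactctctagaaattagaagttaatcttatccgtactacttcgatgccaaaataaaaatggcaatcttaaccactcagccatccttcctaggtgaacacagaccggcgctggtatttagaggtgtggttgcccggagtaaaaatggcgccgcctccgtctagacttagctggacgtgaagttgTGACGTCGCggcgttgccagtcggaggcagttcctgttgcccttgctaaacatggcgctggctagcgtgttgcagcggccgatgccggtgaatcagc
Psmb6: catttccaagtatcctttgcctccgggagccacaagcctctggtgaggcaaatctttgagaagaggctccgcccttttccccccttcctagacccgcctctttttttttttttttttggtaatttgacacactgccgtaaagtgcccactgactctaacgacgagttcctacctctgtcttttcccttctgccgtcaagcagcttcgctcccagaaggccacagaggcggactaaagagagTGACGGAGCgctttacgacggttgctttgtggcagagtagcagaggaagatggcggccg
Psmb8: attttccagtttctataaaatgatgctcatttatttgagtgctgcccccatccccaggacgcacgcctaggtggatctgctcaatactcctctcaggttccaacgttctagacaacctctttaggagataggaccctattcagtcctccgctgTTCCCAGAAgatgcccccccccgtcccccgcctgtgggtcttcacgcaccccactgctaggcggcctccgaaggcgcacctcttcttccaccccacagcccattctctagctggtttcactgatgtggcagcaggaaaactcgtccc
Psmb9: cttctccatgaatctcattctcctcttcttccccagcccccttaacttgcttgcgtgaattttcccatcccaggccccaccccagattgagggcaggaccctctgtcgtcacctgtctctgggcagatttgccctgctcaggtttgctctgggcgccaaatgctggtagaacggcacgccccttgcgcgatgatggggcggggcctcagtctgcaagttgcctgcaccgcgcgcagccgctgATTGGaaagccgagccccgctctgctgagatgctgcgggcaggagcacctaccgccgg
Psme1: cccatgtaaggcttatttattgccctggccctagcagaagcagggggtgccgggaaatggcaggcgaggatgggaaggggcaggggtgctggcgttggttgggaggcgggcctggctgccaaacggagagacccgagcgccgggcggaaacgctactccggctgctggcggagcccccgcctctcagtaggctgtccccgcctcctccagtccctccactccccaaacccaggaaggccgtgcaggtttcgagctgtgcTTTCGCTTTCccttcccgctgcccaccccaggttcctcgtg

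The 20S core was lower across nearly all of its ubiquitous subunits. Of its 16 members, 15 were tested. In edgeR with TMM, 13 were called lower (86.7%, against 28.8% of all genes) and 0 higher (against 28.2%). Of the 13, 6 were called lower under all 4 scalings. The count of 0 higher was also 0 at an unadjusted p under 0.05 and in DESeq2 and limma-voom, whereas with library size alone Psmb4 was called higher. The groups did not overlap in 12 (80%, against 49.8% of all genes). The median log2 fold change was -0.19 with TMM and -0.074 with library size alone. The summed level was 1954 ± 51.0 CPM in control and 1717 ± 14.5 CPM with tranilast. Psma8, the testis-specific alpha subunit, was not called, with 14.8 ± 1.36 CPM in control and 14.8 ± 1.35 CPM with tranilast.

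All 7 subunits of the alpha ring, which gates the barrel, were called lower with TMM, where 28.8% of all genes were. Of the 7, 4 (Psma1, Psma2, Psma3 and Psma6) were called lower under all 4 scalings. Psma6 (alpha 1, ENSMUSG00000021024) had the lowest fold change of the ring. Its level was 139, 147, 139 and 133 CPM in control replicates 1 to 4 and 102, 106, 105 and 99.9 CPM in tranilast replicates 1 to 4. Every tranilast library was below every control library, and the log2 fold change was -0.44 (SE 0.039), still -0.32 with library size alone. Psma4 (alpha 3) had the fold change nearest to 0 in the ring, -0.14 (SE 0.035), and was called with TMM but not with upper-quartile factors, library size alone (-0.024) or FPKM. Its level was 197 ± 8.20 CPM in control and 178 ± 2.57 CPM with tranilast.

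In the structural beta subunits, which carry no active site, 3 of 4 were called lower with TMM (75%, against 28.8% of all genes). Psmb2 had the lowest fold change, -0.19 (SE 0.041), from 117 ± 4.37 CPM in control and 103 ± 4.06 CPM with tranilast, and its call was lost with library size alone (-0.075) and FPKM. Psmb4, a subunit that takes part in joining the core's rings, was not called: 217 ± 4.46 CPM in control and 212 ± 4.0 CPM with tranilast, a log2 fold change of -0.035 (SE 0.031) that turned to 0.082 with library size alone.

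The 3 constitutive catalytic subunits were all called lower with TMM, where 28.8% of all genes were. Psmb7 and Psmb5 were also called lower under all 4 scalings. Psmb7 (trypsin-like site) was at 97.2, 115, 103 and 99.1 CPM in control replicates 1 to 4 and 85.6, 79.5, 83.1 and 86.5 CPM in tranilast replicates 1 to 4. Its groups did not overlap, and the log2 fold change was -0.31 (SE 0.050). Psmb5 (chymotrypsin-like site) was at 91.3, 93.3, 92.2 and 88.4 CPM in control replicates 1 to 4 and 78.5, 80.7, 78.2 and 78.4 CPM in tranilast replicates 1 to 4. Again the groups did not overlap, with a log2 fold change of -0.21 (SE 0.039) and replicates close together in both groups. Psmb6 (caspase-like site) was at 80.7, 89.7, 82.6 and 86.5 CPM in control replicates 1 to 4 and 79.1, 79.3, 69.3 and 81.8 CPM in tranilast replicates 1 to 4. Here tranilast replicate 4 lay above control replicate 1 and tranilast replicate 3 far below the rest. Its log2 fold change of -0.13 (SE 0.052) was no longer called with upper-quartile factors, library size alone (-0.014) or FPKM, nor after leaving out control replicate 2 (-0.10), control replicate 4 (-0.12), tranilast replicate 1 (-0.14), tranilast replicate 2 (-0.14) or tranilast replicate 3 (-0.082).

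The 19S cap showed the same direction with a similar size. All 17 members were tested, and 14 were called lower with TMM (82.4%, against 28.8% of all genes), 6 of them under all 4 scalings. The other 3 (Psmc2, Psmd4 and Psmd8) were not called. The groups did not overlap in 13 (76.5%, against 49.8% of all genes). The median log2 fold change was -0.17, or -0.050 with library size alone, and the summed level was 2814 ± 48.9 CPM in control and 2511 ± 7.17 CPM with tranilast. Of the 6 ATPases that unfold the substrate, 5 were called lower. Psmc3 (Rpt5, ENSMUSG00000002102) had the lowest fold change, and its level was 167, 177, 172 and 176 CPM in control replicates 1 to 4 and 142, 139, 136 and 145 CPM in tranilast replicates 1 to 4. Control and tranilast libraries did not overlap, and the log2 fold change was -0.30 (SE 0.035), or -0.18 with library size alone. Psmc2 (Rpt1) was not called, at 126 ± 3.28 CPM in control and 122 ± 2.61 CPM with tranilast, and its log2 fold change of -0.053 (SE 0.036) turned to 0.064 with library size alone.

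The base of the cap also holds 3 subunits without ATPase activity, of which 2 were called lower with TMM (66.7%, against 28.8% of all genes). Psmd1 (Rpn2), a scaffold of the base, had the lowest of their fold changes, -0.17 (SE 0.034), from 281 ± 13.6 CPM in control and 250.3 ± 2.33 CPM with tranilast; with library size alone (-0.050) and FPKM it was not called. Psmd4 (Rpn10), a ubiquitin receptor, was not called at 179.7 ± 6.88 CPM in control and 173 ± 2.02 CPM with tranilast, a log2 fold change of -0.056 (SE 0.034) that turned to 0.060 with library size alone. Without control replicate 1 it was called, at -0.085. Of the 8 lid subunits, where the deubiquitinase Psmd14 sits, 7 were called lower with TMM (87.5%, against 28.8% of all genes). Psmd12 (Rpn5) had the lowest fold change of these. Its level was 127, 132, 134 and 130.0 CPM in control replicates 1 to 4 and 109, 110.0, 106 and 109 CPM in tranilast replicates 1 to 4. The groups did not overlap, and the log2 fold change was -0.27 (SE 0.035), or -0.15 with library size alone. Psmd8 (Rpn12) was nearly the same in both groups, 205 ± 5.48 CPM in control and 204 ± 5.29 CPM with tranilast; the log2 fold change of Psmd8 was -0.0061 (SE 0.033), and 0.11 with library size alone, where it was called higher. It was above 0 as well without control replicate 3 (0.011), tranilast replicate 2 (0.00090), tranilast replicate 3 (0.0018) or tranilast replicate 4 (0.0069).

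The immunoproteasome genes had the lowest median of the 4 groups, -0.35 with TMM and -0.23 with library size alone, but its genes did not move together. Of the 5, 4 were called lower with TMM (80%, against 28.8% of all genes) and 3 of these (Psmb8, Psmb10 and Psme2) under all 4 scalings. Psmb8 and Psmb9 are neighbours in the MHC region, beside Tap1 and Tap2, and both are classical interferon targets. Psmb8 (LMP7, ENSMUSG00000024338), which replaces Psmb5 and carries TTCNNNGAA in its printed window, was at 76.1, 87.0, 72.7 and 69.5 CPM in control replicates 1 to 4 and 54.9, 49.7, 51.0 and 48.2 CPM in tranilast replicates 1 to 4. All tranilast libraries were below all control libraries, and the log2 fold change of -0.58 (SE 0.064) was the lowest among the members. Psmb9 (LMP2, ENSMUSG00000096727), which replaces Psmb6, was at 18.9, 23.4, 19.7 and 20.4 CPM in control replicates 1 to 4 and 21.5, 18.96, 19.1 and 21.3 CPM in tranilast replicates 1 to 4. The groups overlapped. Psmb9 was not called, and the log2 fold change of Psmb9, -0.025 (SE 0.085), turned to 0.092 with library size alone and to 0.040 without control replicate 2, 0.0073 without tranilast replicate 2 and 0.0024 without tranilast replicate 3.

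Psmb10 (MECL1, ENSMUSG00000031897), which replaces Psmb7, was at 37.2, 43.3, 35.0 and 33.0 CPM in control replicates 1 to 4 and 27.2, 21.7, 29.9 and 21.7 CPM in tranilast replicates 1 to 4. The tranilast replicates fell into a higher pair, 1 and 3, and a lower pair, 2 and 4, but all were below the control libraries, with a log2 fold change of -0.57 (SE 0.10). Of the PA28 activator, Psme2 was at 70.1, 84.2, 75.9 and 73.6 CPM in control replicates 1 to 4 and 61.0, 55.2, 58.7 and 63.7 CPM in tranilast replicates 1 to 4. The groups did not overlap, and the log2 fold change was -0.35 (SE 0.058). Psme1, whose printed window holds the interferon-stimulated core just after the start, was at 85.6, 95.8, 91.8 and 77.3 CPM in control replicates 1 to 4 and 76.0, 73.8, 77.7 and 71.8 CPM in tranilast replicates 1 to 4. Control replicate 4 lay within the tranilast range. Its log2 fold change of -0.23 (SE 0.056) was called with TMM but not with library size alone (-0.11) or FPKM. Control replicate 2 was the highest control library in all 5 genes, and the summed level of the group was 288, 334, 295 and 274 CPM in control replicates 1 to 4 and 241, 219, 236 and 227 CPM in tranilast replicates 1 to 4. Without control replicate 2 the median of the 5 was -0.30.

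**Figure D3:**
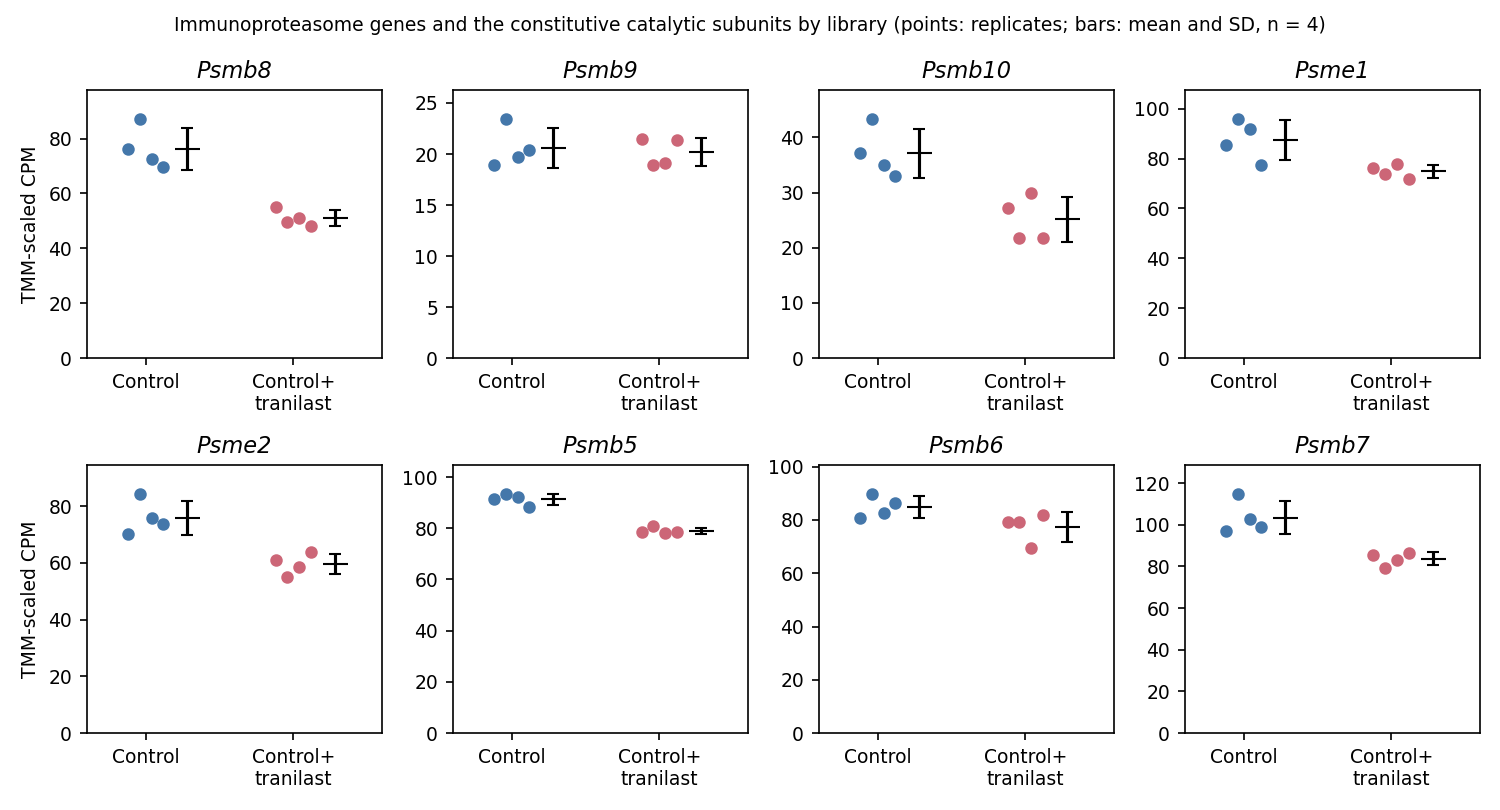
TMM-scaled CPM (vertical axis, from 0) of the 5 immunoproteasome genes and the 3 constitutive catalytic subunits in each control and tranilast library; points are replicates and bars the mean and SD (n = 4). Psmb8, Psmb10 and Psme2 are lower with tranilast with TMM and with library size alone, while Psmb9 overlaps between the groups and its fold change turns from -0.025 with TMM to 0.092 with library size alone.

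Because each immuno subunit takes the place of a constitutive one, their balance was compared within each library as a share of the pair's FPKM, in which a library's scaling cancels. Psmb8 made up 43.4, 45.5, 41.7 and 41.7% of the Psmb8 and Psmb5 sum in control replicates 1 to 4 and 38.3, 34.9, 37.3 and 34.7% in tranilast replicates 1 to 4. The share was lower in every tranilast library, 43.1% ± 1.83 (SD, n = 4) in control against 36.3% ± 1.79 with tranilast. Psmb9 made up 12.2, 13.4, 12.4 and 12.5% of the Psmb9 and Psmb6 sum in control and 13.8, 12.8, 14.0 and 13.4% with tranilast, so that these shares overlapped and leaned the other way. Psmb10 made up 25.3, 25.03, 23.1 and 22.8% of the Psmb10 and Psmb7 sum in control and 21.9, 19.5, 24.2 and 18.2% with tranilast. Tranilast replicate 3 was within the control range there and the other 3 were below it. The 3 pairs thus did not shift together: the share of Psmb8 was lower, that of Psmb9 was not, and that of Psmb10 overlapped.

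**Figure D4:**
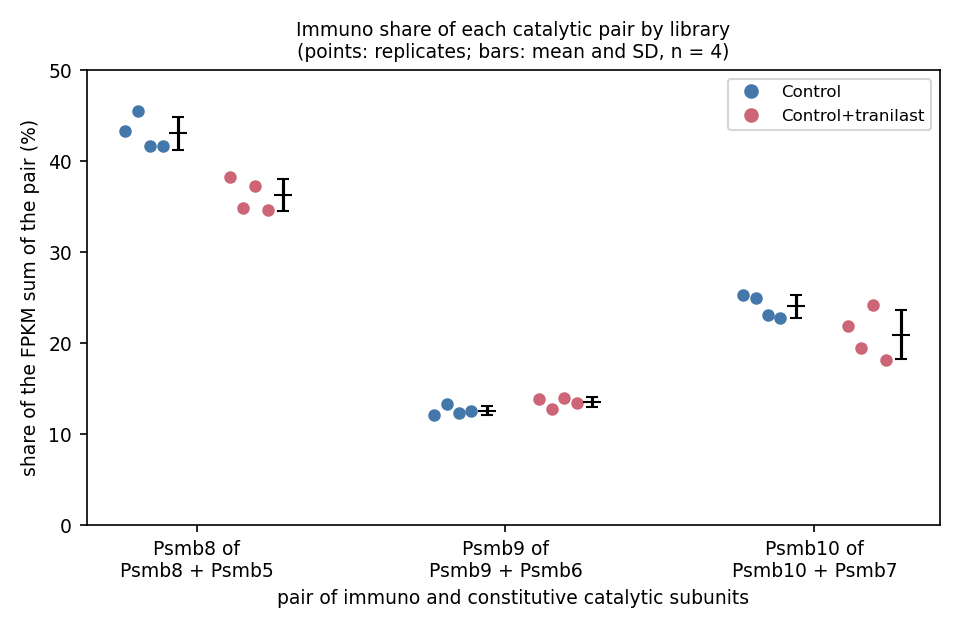
Share of the immuno subunit in the FPKM sum of each catalytic pair, in percent (vertical axis), by library; points are replicates and bars the mean and SD (n = 4). The Psmb8 share lies between 41.7% and 45.5% in control and between 34.7% and 38.3% with tranilast, and the other 2 pairs overlap.

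The assembly factors were mixed. Of the 8, 2 were called lower (Psmg3 and Pomp), 1 higher (Psmd5) and 5 were not called, and 0 were called lower under all 4 scalings. Those called lower were 25% and those called higher 12.5%, against 28.8% and 28.2% of all genes. Their median log2 fold change was -0.047 with TMM and turned to 0.069 with library size alone. With TMM, the 5 factors that build the core all had fold changes below 0, with a median of -0.16, the same as that of all members, while of the 3 chaperones of the cap's base 1 was below 0, with a median of 0.082; the difference between these sets was not tested. The direction of the summed level depended on the scaling. It was 295 ± 3.77 CPM in control and 286 ± 7.24 CPM with tranilast, with overlap, but as a share of the raw counts it was 0.0281, 0.0287, 0.0283 and 0.0282% in control replicates 1 to 4 and 0.0290, 0.0295, 0.0295 and 0.0309% in tranilast replicates 1 to 4, higher in every tranilast library. Pomp, the maturation factor that is degraded as the first client of each new core, was at 75.5, 82.2, 78.8 and 73.3 CPM in control replicates 1 to 4 and 68.9, 71.7, 69.6 and 67.8 CPM in tranilast replicates 1 to 4. The groups did not overlap, although the log2 fold change of -0.16 (SE 0.045) was not called with upper-quartile factors or library size alone (-0.039). Psmg3 (PAC3), a chaperone of the alpha ring that works with Psmg4, was at 21.2, 19.2, 23.5 and 19.2 CPM in control replicates 1 to 4 and 15.3, 15.4, 17.8 and 18.7 CPM in tranilast replicates 1 to 4. Its log2 fold change was -0.31 (SE 0.093), with no overlap, and it was not called with library size alone (-0.19) or FPKM. The partner Psmg4 (PAC4) was not called at 15.8 ± 1.94 CPM in control and 13.1 ± 2.72 CPM with tranilast, a log2 fold change of -0.27 (SE 0.13); without tranilast replicate 4 it was called at -0.42.

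The other chaperone pair of the alpha ring, Psmg1 (PAC1) and Psmg2 (PAC2), was not called either. Psmg1 was at 31.5 ± 1.64 CPM in control and 30.4 ± 3.34 CPM with tranilast, a log2 fold change of -0.048 (SE 0.076) that turned to 0.069 with library size alone and 0.016 without tranilast replicate 3. Psmg2 was at 28.6 ± 3.02 CPM in control and 27.7 ± 1.69 CPM with tranilast, a log2 fold change of -0.047 (SE 0.078) that turned to 0.070 with library size alone and 0.020 without control replicate 4. The remaining factors are chaperones of the cap's base, Psmd5, Psmd9 and Psmd10, and none of these was called lower. Psmd5 (S5b) was at 63.2, 57.8, 59.3 and 65.0 CPM in control replicates 1 to 4 and 70.5, 64.6, 68.2 and 64.1 CPM in tranilast replicates 1 to 4. Its ranges overlapped, and the log2 fold change of 0.12 (SE 0.050), called higher in edgeR with TMM, was not called in DESeq2, with FPKM or with no filter. Leaving out control replicate 2 (0.10), control replicate 3 (0.11), tranilast replicate 1 (0.10) or tranilast replicate 3 (0.12) also ended the call. Psmd9 (p27) was at 27.8 ± 0.687 CPM in control and 27.4 ± 2.15 CPM with tranilast, a log2 fold change of -0.017 (SE 0.069) that turned to 0.10 with library size alone and 0.035 without tranilast replicate 1. Psmd10 (gankyrin) was at 32.0 ± 2.98 CPM in control and 33.9 ± 1.80 CPM with tranilast, a log2 fold change of 0.082 (SE 0.070), not called with TMM and called higher with library size alone (0.20) and FPKM.

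Outside these groups the rule matched other regulators of the core and 3 further genes. Psme3 (PA28 gamma, ENSMUSG00000078652), a nuclear activator that opens the core without ATP, was at 332, 315, 335 and 317 CPM in control replicates 1 to 4 and 247, 243, 249 and 246 CPM in tranilast replicates 1 to 4. The groups lay far apart relative to their spread, and the log2 fold change was -0.40 (SE 0.030), or -0.28 with library size alone. Psme4 (PA200), another nuclear activator, was at 148 ± 3.10 CPM in control and 136 ± 6.24 CPM with tranilast; its log2 fold change of -0.12 (SE 0.038) was called with TMM but not with upper-quartile factors, library size alone (-0.0020), FPKM or without tranilast replicate 2 (-0.090). Psmf1 (PI31, ENSMUSG00000032869), first described as an inhibitor of the core, went the other way, at 35.4, 34.9, 34.9 and 37.5 CPM in control replicates 1 to 4 and 39.3, 44.1, 40.01 and 38.4 CPM in tranilast replicates 1 to 4. Its groups did not overlap, and the log2 fold change was 0.18 (SE 0.058), or 0.30 with library size alone. It was called higher under all scalings used but not without tranilast replicate 2 (0.14). Psmc3ip and Psme3ip1, partners of other proteins by name, and Psme2b, which the KEGG proteasome pathway lists, were not called with TMM; without these 3 the counts stayed at 2 higher and 35 lower. Psmc3ip, with a log2 fold change of 0.17 (SE 0.091), was called higher with upper-quartile factors (0.23), library size alone (0.28), FPKM (0.25 with log2 FPKM plus 1) and without tranilast replicate 3 (0.23). The fold changes of Psme3ip1, -0.057 (SE 0.054), and Psme2b, -0.031 (SE 0.21), turned to 0.060 and 0.085 with library size alone, and Psme2b was also above 0 without control replicate 2 (0.076), control replicate 3 (0.036), tranilast replicate 2 (0.041) or tranilast replicate 4 (0.0079).

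Levels of different genes were compared by FPKM only. In control, the core subunits ranged from 41.1 FPKM (Psma2) to 176 FPKM (Psmb4) when Psma8 and Psmb11 were set aside, a 4.28-fold range with a median of 126 FPKM. The cap subunits ranged less, from 51.3 FPKM (Psmd13) to 141 FPKM (Psmd8), a 2.75-fold range with a median of 83.6 FPKM. Psme3 was at 119 ± 3.60 FPKM, within the range of both. The genes of the complex thus lay within a few-fold of each other, apart from the testis-specific Psma8 at 9.56 ± 0.928 FPKM. In the immunoproteasome, Psme2 (76.5 ± 6.04 FPKM), Psme1 (75.6 ± 6.72 FPKM) and Psmb8 (74.1 ± 6.78 FPKM) did not differ beyond their spread, while Psmb10 (27.2 ± 3.20 FPKM) and Psmb9 (14.7 ± 1.36 FPKM) were lower. Among the assembly factors Pomp stood highest at 78.4 ± 6.81 FPKM, and Psmd9 lowest at 11.2 ± 0.718 FPKM.

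Relative levels within a complex shifted for some genes, which were chosen here after their values were seen. As a ratio to the core's median FPKM in the same library, Psmb4 was 1.43 ± 0.0214 in control and 1.67 ± 0.0689 with tranilast, and Psma6 was 1.05 ± 0.0485 and 0.921 ± 0.0372. In the cap, Psmd8 was 1.69 ± 0.0720 times the median in control and 1.92 ± 0.105 with tranilast. Replicates were close for nearly all members: the median coefficient of variation of the CPM was 4.17% in control and 3.75% with tranilast, and the widest were Psme2b in control (24.2%) and Psmg4 with tranilast (20.8%).

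**Figure D5:**
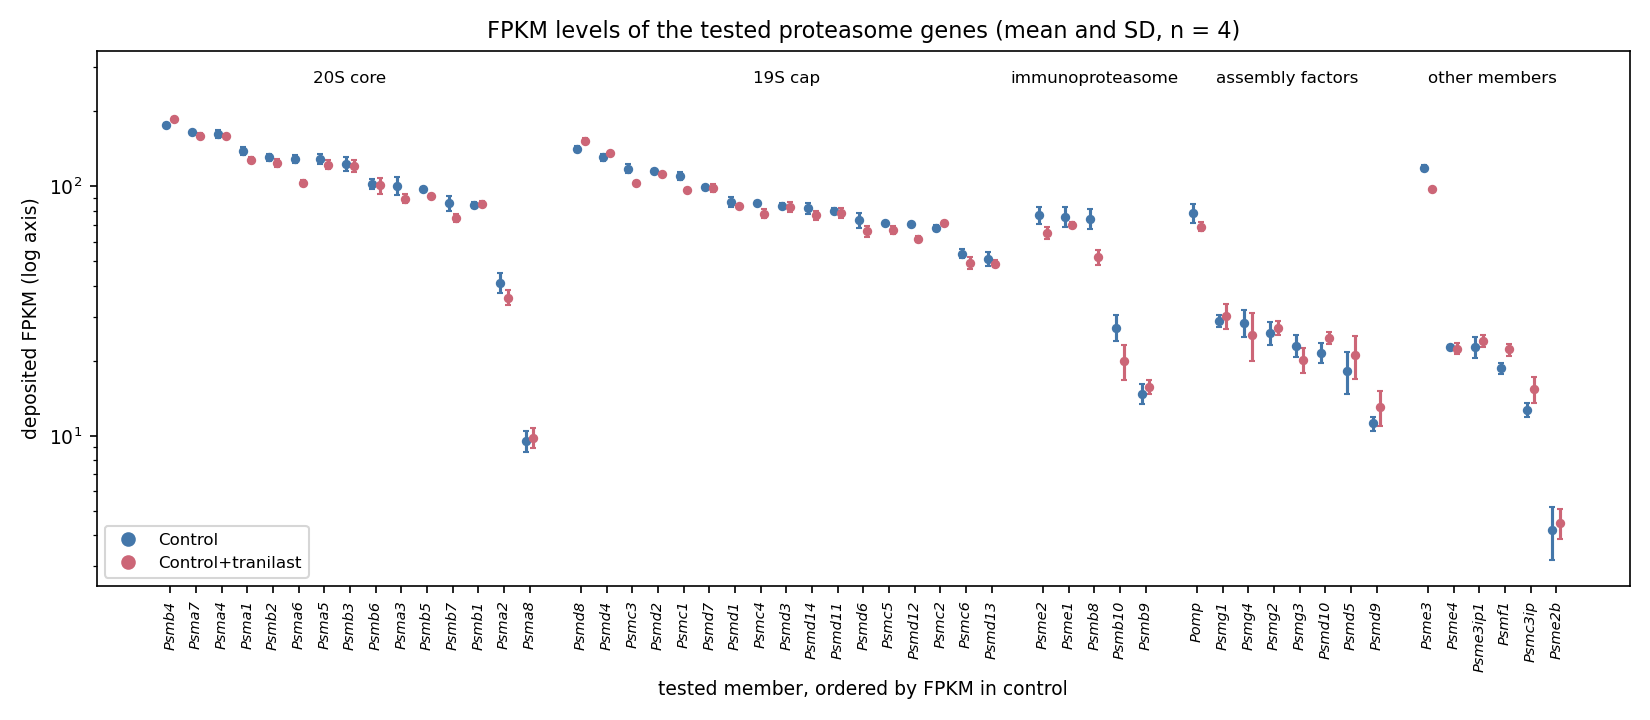
Deposited FPKM on a log axis for the 51 tested members, grouped by role and ordered by the control level; points are group means and bars the SD (n = 4). The core lies between 41.1 and 176 FPKM in control apart from Psma8, the cap between 51.3 and 141 FPKM, and the assembly factors other than Pomp below both ranges.

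Genes that act with the proteasome were taken from 7 lists with 62 genes, 2 of them in 2 lists. Of the 61 tested, 17 were called higher, 23 lower and 21 were not called, which makes 65.6% called, against 57.0% of all genes (28.2% higher and 28.8% lower); with library size alone 27 were higher and 14 lower. These lists too were written with earlier results of the data known. Unless stated otherwise, adjusted p-values for their genes come from the quasi-likelihood test of edgeR, by the Benjamini-Hochberg method over all 10770 genes, with 4 libraries in each group.

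Partners and subunits outside the symbol rule were mixed. Of the 12 tested, 6 were called lower and 3 higher (Zfand2a, Zfand5 and Fbxo7), and the median log2 fold change was -0.13; with library size alone 3 were lower and 4 higher, with a median of -0.017. Akirin2, which brings proteasomes into the nucleus, fell from 24.8 ± 0.909 to 14.4 ± 1.21 CPM, with all 4 tranilast libraries below the control range (log2 fold change -0.78, SE 0.081, adjusted p = 1.8e-07 in edgeR). Uchl5, a deubiquitinase of the cap, fell from 81.2 ± 2.58 to 59.9 ± 1.07 CPM, again without overlap (log2 fold change -0.44, SE 0.042, adjusted p = 7.4e-08 in edgeR). Usp14, another deubiquitinase of the cap, fell as well, from 271 ± 4.62 to 227 ± 6.15 CPM in all 4 libraries (log2 fold change -0.26, SE 0.030, adjusted p = 1.1e-06 in edgeR). Zfand2a (AIRAP), a stress-induced partner of the cap, rose from 20.3 ± 0.874 to 37.8 ± 2.49 CPM in all 4 libraries (log2 fold change 0.90, SE 0.068, adjusted p = 3.1e-09 in edgeR). Neither of the cap subunits without a Psm symbol was called. Adrm1 (Rpn13), a ubiquitin receptor, had a log2 fold change of -0.088 (SE 0.040) in edgeR (adjusted p = 0.0671), which turned to 0.029 with library size alone; its groups did not overlap. Sem1, the smallest cap subunit, had a log2 fold change of -0.17 (SE 0.074) with overlapping groups (adjusted p = 0.0526 in edgeR). Sem1 was called in DESeq2, with RLE factors, with no filter, with the replicate block, without control replicate 1 (-0.22) and without control replicate 3 (-0.21), at adjusted p from 0.0169 to 0.610 over all its alternatives.

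Shuttle factors, which carry ubiquitinated proteins to the proteasome, were also mixed. Of the 6 shuttle factors, 2 were called lower (Rad23b and Ubqln1) and 1 higher (Ubqln2), with a median of -0.066 that turned to 0.050 with library size alone. Rad23b fell from 398 ± 9.62 to 296 ± 5.57 CPM in all 4 libraries (log2 fold change -0.43, SE 0.028, adjusted p = 4.6e-10 in edgeR). Ubqln2 rose from 79.6 ± 3.57 to 92.0 ± 2.64 CPM in all 4 (log2 fold change 0.21, SE 0.043, adjusted p = 4.4e-04 in edgeR). Uba1, the main ubiquitin-activating enzyme, fell from 564 ± 8.52 to 478 ± 7.05 CPM in all 4 libraries (log2 fold change -0.24, SE 0.025, adjusted p = 1.7e-07 in edgeR).

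The route that raises proteasome genes when proteasome activity is short was higher in part. NRF1 (Nfe2l1) is held in the endoplasmic reticulum, pulled out by Vcp, freed of its sugars by Ngly1 and cleaved by Ddi2 before it enters the nucleus. Of the 9 genes of this list, 5 were called higher (Nfe2l1, Ngly1, Syvn1, Sel1l and Mafg) and 0 lower in edgeR, with a median of 0.15, and 6 and 0 with library size alone. The count of 0 lower was also 0 at an unadjusted p under 0.05 and in DESeq2 and limma-voom. Nfe2l1 rose from 176 ± 6.85 to 213 ± 7.07 CPM, higher in all 4 tranilast libraries (log2 fold change 0.27, SE 0.036, adjusted p = 4.2e-06 in edgeR). Ngly1 rose from 14.6 ± 3.26 to 23.0 ± 2.73 CPM without overlap (log2 fold change 0.66, SE 0.12, adjusted p = 1.8e-04 in edgeR). Sel1l, of the reticulum's ubiquitin ligase complex, rose least of the 5, from 204 ± 7.67 to 226 ± 6.69 CPM in all 4 libraries (log2 fold change 0.15, SE 0.035, adjusted p = 0.00154 in edgeR). The protease Ddi2 was not called at 149.6 ± 10.1 CPM in control and 142 ± 2.49 CPM with tranilast (log2 fold change -0.075, SE 0.043, adjusted p = 0.144 in edgeR), turned to 0.041 with library size alone, and was called lower without control replicate 2 (-0.11; adjusted p from 0.0325 to 0.883 over its alternatives). Of the 9 genes of the VCP list, 3 were called lower (Faf1, Nploc4 and Ubxn1) and 1 higher (Ubxn4), with a median of -0.0056; with library size alone 1 was lower and 6 were higher, with a median of 0.11. Vcp itself was not called at 683 ± 12.9 CPM in control and 677 ± 9.02 CPM with tranilast (log2 fold change -0.012, SE 0.024, adjusted p = 0.676 in edgeR). The log2 fold change of Vcp turned to 0.10 with library size alone, where it was called higher, and to 0.0015 without tranilast replicate 4 (adjusted p from 9.4e-04 to 0.967 over its alternatives). Ubxn4, a Vcp cofactor of the reticulum, rose from 109 ± 3.22 to 139 ± 8.35 CPM in all 4 libraries (log2 fold change 0.34, SE 0.043, adjusted p = 2.4e-06 in edgeR). The cofactor Faf1 fell from 82.9 ± 3.79 to 70.2 ± 2.16 CPM in all 4 (log2 fold change -0.24, SE 0.045, adjusted p = 1.7e-04 in edgeR), a call that was lost with FPKM (adjusted p from 1.5e-05 to 0.0709 over its alternatives).

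NRF2 (Nfe2l2), a relative of NRF1 that answers oxidative stress and shares its binding motif, was examined with its regulators and targets. Of the 7 genes tested, 6 were called higher and 1 lower (Keap1), with a median of 0.51, and the counts were the same with library size alone; the target Nqo1 had at most 0.119 CPM on average and was not tested. Nfe2l2 rose from 167 ± 2.62 to 202 ± 3.99 CPM in all 4 libraries (log2 fold change 0.28, SE 0.031, adjusted p = 5.3e-07 in edgeR). Srxn1, a target that repairs oxidized peroxiredoxins, rose from 53.5 ± 1.91 to 123 ± 6.73 CPM in all 4 (log2 fold change 1.2, SE 0.047, adjusted p = 2.4e-13 in edgeR). Keap1, which hands Nfe2l2 to degradation, fell from 139 ± 8.89 to 111 ± 5.28 CPM in all 4 (log2 fold change -0.32, SE 0.047, adjusted p = 1.6e-05 in edgeR). Whether the levels of these factors bear on the proteasome genes was not tested.

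The interferon and antigen presentation genes were lower in part, as were the immunoproteasome genes that answer to the same cytokines. Of the 14, 7 were called lower and 0 higher in edgeR, with a median of -0.18; with library size alone 6 were lower and 2 higher, with a median of -0.060. At an unadjusted p under 0.05, 1 gene was higher in edgeR (Irf1); DESeq2 and limma-voom called 0 higher. B2m, the light chain of MHC class I, fell from 593 ± 46.5 to 483 ± 16.0 CPM in all 4 libraries (log2 fold change -0.30, SE 0.042, adjusted p = 1.0e-05 in edgeR). Erap1, which trims peptides for MHC class I, fell least of the 7, from 167 ± 9.09 to 149.9 ± 8.14 CPM with overlapping groups (log2 fold change -0.15, SE 0.044, adjusted p = 0.00638 in edgeR), and was not called with upper-quartile factors, library size alone (-0.038) or FPKM (adjusted p from 0.00106 to 0.726 over its alternatives).

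The regulators and transporters closest to the immunoproteasome genes were not called. Tap1, the peptide transporter encoded beside Psmb9, was at 77.0, 92.4, 81.4 and 62.3 CPM in control replicates 1 to 4 and 83.1, 65.7, 69.2 and 66.6 CPM in tranilast replicates 1 to 4 (log2 fold change -0.14, SE 0.091, adjusted p = 0.208 in edgeR). The groups overlapped, and Tap1 was called lower without control replicate 4 (-0.23) and without tranilast replicate 1 (-0.22; adjusted p from 0.0130 to 0.919 over its alternatives). Nlrc5, the activator of MHC class I genes, was at 48.4 ± 8.59 CPM in control and 42.3 ± 6.89 CPM with tranilast (log2 fold change -0.20, SE 0.11, adjusted p = 0.142 in edgeR). It was called lower with no filter, without control replicate 4 (-0.31) and without tranilast replicate 1 (-0.28), and turned to 0.059 with FPKM (adjusted p from 0.0111 to 0.793). Irf1, an interferon-induced activator of Psmb9 and Tap1, leaned the other way, at 28.1 ± 3.36 CPM in control and 33.2 ± 6.47 CPM with tranilast (log2 fold change 0.24, SE 0.11, adjusted p = 0.0742 in edgeR). Irf1 was called higher with upper-quartile factors, library size alone (0.35), FPKM and no filter, and with control replicate 2 left out (0.32), likewise for tranilast replicate 2 (0.30) and tranilast replicate 4 (0.31), with adjusted p from 0.00378 to 0.377 over all its alternatives.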

How the data were processed

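Per the labels and methods, RNA was poly-A enriched, and paired-end libraries were sequenced, 4 Control and 4 Control+tranilast. The authors deposited for each gene an estimated count (expected counts, not always whole numbers) and an FPKM value. The aligner, counter and genome build are not given in the sources used here. After rounding of the counts, low genes were removed by filterByExpr, and libraries were scaled by TMM (factors 0.956 to 0.965 in control, 1.037 to 1.045 with tranilast) and compared in edgeR 4.0.16 by the quasi-likelihood test with Benjamini-Hochberg adjustment over 10770 genes (biological coefficient of variation 5.09%), in R 4.3.3. The code was tested on simulated data. Means carry the SD (n = 4) and fold changes the SE of the fit.

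Alternatives were RLE and upper-quartile factors, library size alone, DESeq2 1.42.0, limma-voom (limma 3.58.1), limma on log2 FPKM plus 1 or 0.1, no filter, a minimum of 10 counts in each of the libraries, a replicate block, each library left out, and the study's fold threshold of 1.5. Named were the immunoproteasome genes, assembly factors, constitutive catalytic subunits, other activators and the inhibitor, untested members, the extremes of each structural role, preset neighbours and the extremes of the called genes in each neighbour list; where a count was small, its other genes were named after their values were seen. Not every gene the rule took is described. The members and lists were chosen with earlier results of these data known. Marker lists of other cell types took at most 7.47e-05% (endothelial), 0.000134% (stellate and fibroblast), 5.37e-05% (cholangiocyte), 1.51e-05% (T and NK), 2.72e-05% (B), 7.55e-06% (neutrophil), 0.000388% (dendritic) and 5.89e-05% (Kupffer) of a library's counts. Promoter windows came from RefSeq. Python 3.11.15, pandas 2.3.3, numpy 2.4.6 and matplotlib 3.10.9 were used.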

Additional observations from a re-analysis of the deposited data

Results flagged for a closer look

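Over the 55 genes taken by the naming rule and the summed levels of all members and of 4 groups, 7 of 120 sets of 4 libraries held a library that stood apart, by a gap to its nearest neighbour that was wide relative to the set's range (Dixon's gap ratio past its critical value). Chance gives about 1 in 20 sets, so this number is near what chance gives. On the log2 CPM scale, in which small gaps count where replicates are close, Psmb4 was low in control replicate 1 (7.72 against 7.77 to 7.78 in the other 3). Tranilast replicate 2 was high for Psmb5 (6.33 against 6.29 to 6.30) and Srxn1 (7.06 against 6.89 to 6.91) and low for Psmc2 (6.88 against 6.94 to 6.95). Tranilast replicate 1 was high for Psmd8 (7.73 against 7.65 to 7.66) and low for Psmg2 (4.66 against 4.82 to 4.85), and tranilast replicate 3 was high for Uchl5 (5.94 against 5.89 to 5.89). Why these libraries stood apart was not tested.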

How the results depend on the processing

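The markers go against the liver label, 4 libraries a group limit what can be called, and the p-values measure the spread between these samples only. Over the 55 genes taken by the naming rule, 856 of 990 single-gene alternatives kept the direction and side of the threshold, 54 lost a call, 25 gained one and 55 turned sign, the last in 12 genes. The cause of these changes was not tested, except that a scaling moves all genes together.

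Members called higher and lower were 2 and 35; they were 6 and 16 with library size alone, 5 and 18 with log2 FPKM plus 1, and 5 and 18 with log2 FPKM plus 0.1. DESeq2 called 1 higher and 35 lower, and no filter gave 1 and 35. Leaving out 1 library at a time gave 1 to 2 higher and 31 to 36 lower, with 1 higher without control replicate 2, control replicate 3, tranilast replicate 1 or tranilast replicate 2. At the study's threshold edgeR counted 0 higher and 0 lower members, with 0 also at an unadjusted p under 0.05 and in DESeq2 and limma-voom, and 120 genes of all tested. Without members whose estimated count was fractional in 4 or more libraries, chosen after seeing the data, the counts were 2 and 32; without Psmc3ip, Psme3ip1 and Psme2b, also chosen after seeing the data, 2 and 35. Genes of the neighbour lists called higher and lower were 17 and 23, 27 and 14 with library size alone, and 0 and 0 at the study's threshold in edgeR (0 also at an unadjusted p, in DESeq2 and in limma-voom); 10 and 10 were lower with log2 FPKM plus 1 and plus 0.1.

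With library size alone, log2 FPKM plus 1 and log2 FPKM plus 0.1, the median log2 fold change was -0.074, -0.074 and -0.074 for the 20S core, -0.050, -0.062 and -0.063 for the 19S cap (-0.10 with upper-quartile factors), and -0.23, -0.23 and -0.23 for the immunoproteasome. The assembly factors turned from -0.047 to 0.020 with upper-quartile factors, 0.069 with library size alone, and 0.066 and 0.068 with FPKM. Deviations from the group means, taken without a block, correlated at -0.0556, -0.0442, 0.00763 and 0.107 between libraries of the same number. Pairs of different numbers ranged from -0.179 to 0.18. With 4 libraries a group, such values cannot exclude that the numbers pair libraries. The replicate number as a block gave 2 members higher and 35 lower, 6009 genes called, and 16 and 24 in the neighbour lists. With it the medians were -0.19, -0.17, -0.35 and -0.050 for the core, cap, immunoproteasome and assembly factors.

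Log2 fold changes that turned above 0 with upper-quartile factors, library size alone, log2 FPKM plus 1 and log2 FPKM plus 0.1 were, in that order, Psmb4 0.033, 0.082, 0.081 and 0.082, Psmb9 0.042, 0.092, 0.090 and 0.096, Psmc2 0.014, 0.064, 0.062 and 0.063, Psmd4 0.011, 0.060, 0.061 and 0.062, Psmd8 0.061, 0.11, 0.11 and 0.11, Psmd9 0.051, 0.10, 0.19 and 0.20, Psmg1 0.020, 0.069, 0.056 and 0.058, Psmg2 0.021, 0.070, 0.075 and 0.078, and Vcp 0.055, 0.10, 0.10 and 0.10. With library size alone and the 2 FPKM settings, Adrm1 was 0.029, 0.028 and 0.028, and Ddi2 0.041, 0.070 and 0.072; Nlrc5 was 0.059 and 0.063 with FPKM. Leaving out 1 library at a time gave Psmb9 -0.065 to 0.040, Psmd8 -0.022 to 0.011, Psmd9 -0.056 to 0.035, Psmg1 -0.098 to 0.016, Psmg2 -0.10 to 0.020 and Vcp -0.027 to 0.0015; the cause was not tested.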

Other observations

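The control libraries took similar places in the immunoproteasome and interferon genes. Control replicate 2 held the highest control value in all 5 immunoproteasome genes, in 9 of the 14 interferon and antigen presentation genes and in 25 of the 51 tested members (49.0%), against 26.1% of all genes tested. Control replicate 4 held the lowest control value in 3 of the 5 and in 8 of the 14, against 22.4% of all genes. The tranilast libraries did not take the same places in both lists. Replicate 1 held the highest tranilast value in 9 of the 14 (25.1% of all genes) but in 2 of the 5, as did replicate 3. Replicate 4 held the lowest in 10 of the 14 (24.8% of all genes) and in 2 of the 5, where replicate 2 was lowest in 3. The genes of a list are not independent of each other, and no test was made.

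The KEGG proteasome pathway of the deposited annotation held 49 genes, of which 44 follow the symbol rule. The other 5 were Adrm1, Adrm1b, Sem1, Gm21972 and Ifng, the interferon gamma gene itself, which was at 0 in all 8 libraries.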
